A study of Mus musculus with 32 samples.

Results

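*Nanog* and *Tbx3* were followed through 32 RNA-seq libraries of mouse embryonic stem cells in 11 conditions. They are 2 of the 51826 genes in the count table, and were chosen by name: their rows are ENSMUSG00000012396.12 and ENSMUSG00000018604.18. RGd2 cells carry a destabilized GFP reporter in the *Rex1* (*Zfp42*) locus and are the parental line of every mutant. They were sampled in 2i (the MEK inhibitor PD0325901 with the GSK3 inhibitor CHIRON), in 2i for 5 passages (2i-p5), in CHIRON alone for 2 passages (CHp2), and in inhibitor-free N2B27 for 16 h (N16h) and 72 h (N72h). *Rbpj*-KO and *Etv5*-KO cells were sampled in 2i and at N16h. Cells lacking *Etv5* and *Rbpj* (ER-dKO) were sampled after 5 passages in CHIRON, and cells lacking *Etv5*, *Tcf3* (gene symbol *Tcf7l1*) and *Rbpj* (ETR-tKO) after 5 passages in N2B27. The paper states that its lines were routinely kept in CHIRON with the cytokine LIF and moved into 2i shortly before an assay. There are 3 libraries per condition, with 2 in the case of *Etv5*-KO at N16h. Each mutant library is a separate clonal line within its condition, and the *Rbpj*-KO lines c28, c33 and c36 and the *Etv5*-KO lines c17 and c1 recur in 2i and at N16h. In every RGd2 group a pair of libraries came from the parental culture and the other from a clonal derivative.

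NANOG is a homeodomain transcription factor and TBX3 a T-box transcription factor. Both belong to the circuit that maintains naive pluripotency in 2i, and forced expression of either favours self-renewal. On withdrawal of the inhibitors the circuit is dismantled over about a day as cells move towards formative pluripotency. RBPJ is the DNA-binding effector of NOTCH signalling and acts as a repressor when no NOTCH intracellular domain is bound. ETV5 is an ETS-family factor downstream of FGF/ERK signalling, and TCF3 is a repressor of naive genes that CHIRON relieves.

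*Nanog* lies on the plus strand of chromosome 6, from 122707489 to 122714633 (GRCm38), and *Tbx3* on the plus strand of chromosome 5, from 119670669 to 119684724. RefSeq promoter windows (GRCm38.p6, 250 bases before to 50 after a start) were matched for *Nanog*, with 2 windows that overlap. The 250 bases before the first of the *Nanog* starts, chr6:122707239-122707488, are printed because the study examined RBPJ at this promoter. Capitals mark exact matches, on either strand, to any of the motifs searched: the RBPJ core TGGGAA, the RBPJ variant TGTGAA, the TCF/LEF core CTTTGAA, the ETS core CCGGAA, the octamer part TTTGCAT and the SOX core CATTGT.
Nanog, 250 bases upstream of the first start: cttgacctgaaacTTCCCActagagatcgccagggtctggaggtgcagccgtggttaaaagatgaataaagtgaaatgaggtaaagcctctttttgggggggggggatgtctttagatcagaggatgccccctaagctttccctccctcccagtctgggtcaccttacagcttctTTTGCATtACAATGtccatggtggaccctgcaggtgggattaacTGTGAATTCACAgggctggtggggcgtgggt
The RBPJ core was found once, in reverse complement, at positions −237 to −232 from the start base (counted as 0). The RBPJ variant was found on both strands in direct succession, at −31 to −20, which with a base on each side forms the palindrome CTGTGAATTCACAG (chr6:122707457-122707470). The octamer part (−75 to −69) and the SOX core (−67 to −62) lie next to each other, and neither the TCF/LEF core nor the ETS core was found. Shares were taken over 32851 full windows, which also include the 50 bases after the start. Of these, 25.6% hold the RBPJ core, 14.8% the variant, 5.1% the TCF/LEF core, 14.9% the ETS core, 4.63% the octamer part and 12.6% the SOX core. The variant followed directly by its own reverse complement, a form looked for after the *Nanog* sequence had been seen, is in 4 of these windows (0.0122%). They belong to 3 genes: *Nanog*, with both of its overlapping windows, *Gm32293* and *Gm33347*. These matches describe the letters of the window only.

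The oligonucleotides with which the study probed RBPJ at both genes are printed to show which stretches were probed. The *Nanog* primers enclose 66 bases at chr6:122707519-122707584, a region separated from the palindrome by 48 bases, which spans further annotated *Nanog* starts.
Nanog, forward: gggtagggtaggaggcttga
Nanog, reverse: cggctcaaggcgatagatt
Tbx3, first pair, forward: gcaaagtcatggagctcgta
Tbx3, first pair, reverse: acaagctagccggagaga
Tbx3, second pair, forward: ggttctagggcggctctg
Tbx3, second pair, reverse: gtcagcgcggattctctg
The guides used against *Rbpj* are printed with the adjacent PAM in capitals, because they delimit the part of the gene that was targeted. Both lie on the minus strand of chromosome 5, at 53645980 to 53645999 and at 53649718 to 53649737.
Rbpj, exon 5 guide: tgacctttatccgcttgctgAGG
Rbpj, exon 7 guide: gcttgacagtctgcccgtaaTGG
*Rbpj* spans 53466152 to 53657362, so exons outside the targeted stretch can still give reads.

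Libraries held from 5986857 to 71439411 counts on genes, and the lowest number is that of RGd2 in 2i replicate 33, the clonal library. Counts were scaled by ERCC spike-ins (normalized counts), which serve to compare conditions. FPKM, which divides by gene length, serves to compare *Nanog* with *Tbx3*. *Nanog* was covered by 1145 to 54105 reads per library and *Tbx3* by 40 to 10961. Pseudogenes and antisense genes contributed little: *Nanog-ps1* and *Nanog-ps2* held 0 and 1 counts over all libraries, and *Tbx3os1* and *Tbx3os2* at most 17 and 15 in any library. The defining pluripotency markers were detected in every condition (summed FPKM of *Pou5f1*, *Sox2*, *Zfp42*, *Esrrb* and *Klf4* at least 384). In RGd2 N72h only 4 of these 5 genes reached a mean FPKM of 1. That of 5 trophoblast markers was at most 8.75.

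*Rbpj* had a normalized count of 3957 to 5067 in RGd2 in 2i and of 971 to 1242 in *Rbpj*-KO, and at N16h of 12250 to 12690 and of 2482 to 2781. In ER-dKO it was 1131 and 1299 in the first pair of lines, but 3468 in the library labelled ERc9 (replicate 12), which is above all 3 RGd2 2i-p5 libraries (2813 to 3365). ETR-tKO had 1550 to 2334. *Etv5* was 14030 to 16690 in RGd2 and 2080 to 2370 in *Etv5*-KO in 2i, and *Tcf7l1* was 29.0 to 120 in ETR-tKO against 460 to 588 in RGd2 2i-p5.

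**Figure D1:**
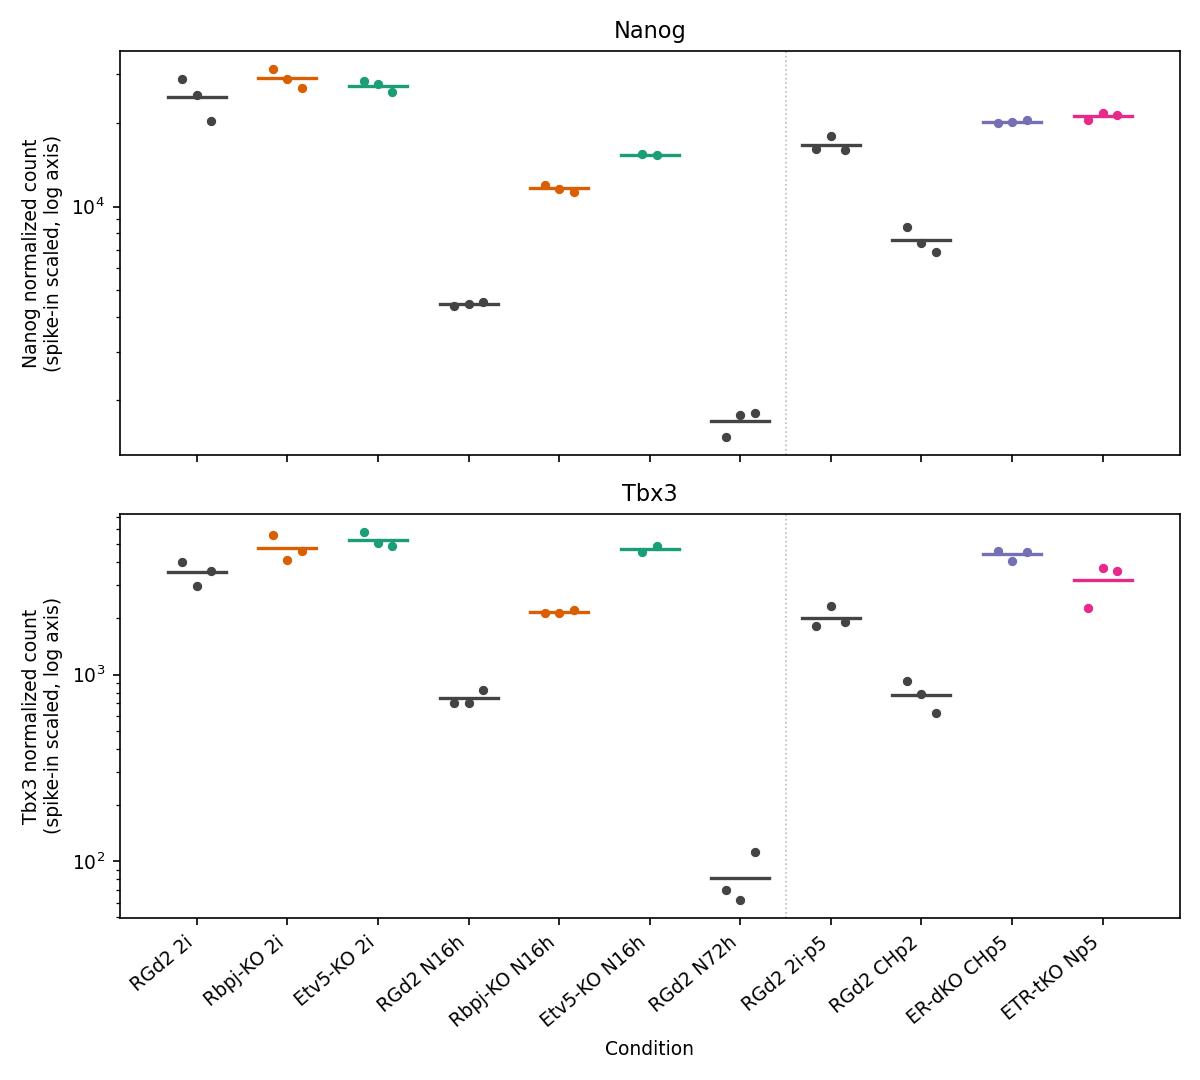
Spike-in normalized count of *Nanog* (top) and *Tbx3* (bottom) in each of 32 libraries on a log axis, by condition, with a bar at the condition mean. Both genes are lowest in RGd2 N72h, and *Tbx3* in *Etv5*-KO at N16h sits within the range of the 2i conditions.

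*Nanog* was the more abundant of the pair per length of transcript in every library. In RGd2 in 2i its FPKM was 391, 410 and 379, and that of *Tbx3* was 18.4, 16.5 and 22.6. The ratio of *Nanog* to *Tbx3* per length was 21.0 ± 4.07 (SD, n = 3) there, 17.7 ± 1.39 in RGd2 at N16h and 64.8 ± 18.6 in RGd2 N72h. This ratio does not depend on any scaling between libraries. It was lowest in *Etv5*-KO at N16h, at 9.24 and 10.1, below all other 30 libraries.

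Ordered by mean normalized count, *Nanog* ran from *Rbpj*-KO in 2i (29020 ± 2241, SD, n = 3) through *Etv5*-KO in 2i (27320 ± 1284), RGd2 in 2i (24850), ETR-tKO (21300), ER-dKO (20250), RGd2 2i-p5 (16740), *Etv5*-KO at N16h (15410, n = 2), *Rbpj*-KO at N16h (11620), RGd2 CHp2 (7556) and RGd2 N16h (4451) to RGd2 N72h (1687). The first 4 of these conditions overlapped with their neighbours in the order, while from ETR-tKO downward each range was clear of the next. For *Tbx3* the order was *Etv5*-KO in 2i (5262), *Rbpj*-KO in 2i (4755), *Etv5*-KO at N16h (4715), ER-dKO (4400), RGd2 in 2i (3541), ETR-tKO (3200), *Rbpj*-KO at N16h (2169), RGd2 2i-p5 (2017), RGd2 CHp2 (777), RGd2 N16h (745) and RGd2 N72h (81.4). Neighbours in this order overlapped for the first 4 conditions, for RGd2 in 2i with ETR-tKO, for *Rbpj*-KO at N16h with RGd2 2i-p5, and for CHp2 with RGd2 N16h. *Etv5*-KO at N16h thus held place 7 for *Nanog* and place 3 for *Tbx3*.

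**Figure D2:**
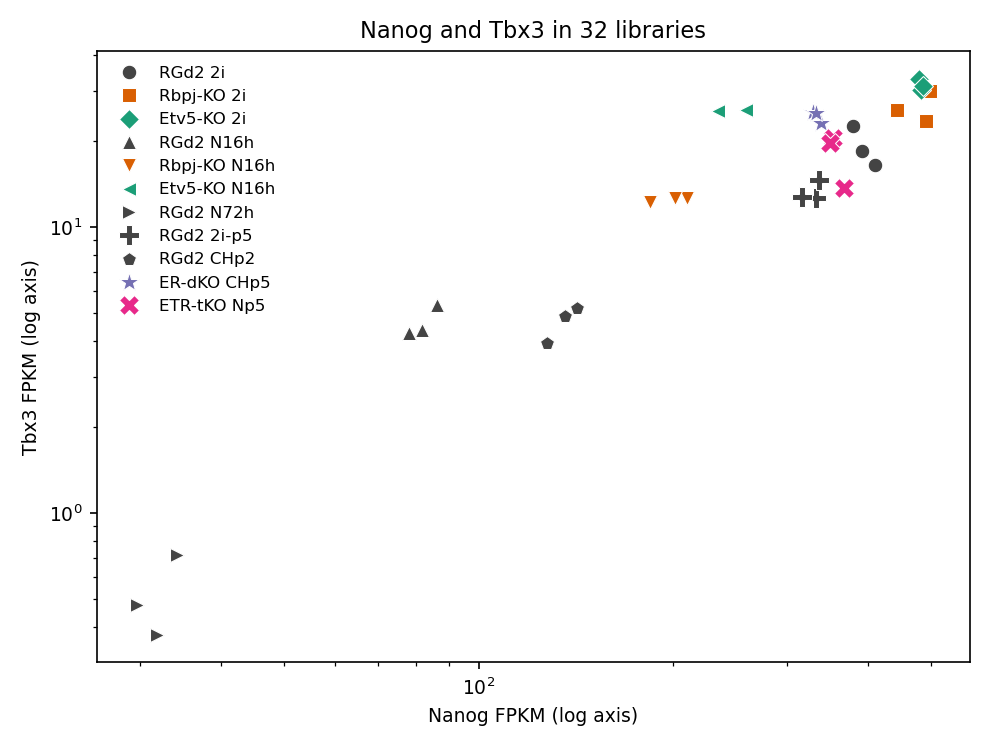
FPKM of *Tbx3* against FPKM of *Nanog* in each of 32 libraries, both on log axes, with a symbol per condition. The *Etv5*-KO N16h libraries lie above the others of like *Nanog* level, at *Tbx3* FPKM of 25.6 and 25.4.

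Both genes fell steeply in parental cells within 16 h of withdrawal. *Nanog* in RGd2 was 28930, 25210 and 20410 in 2i and 4373, 4439 and 4540 at N16h. *Tbx3* was 4022, 2996 and 3604 in 2i and 705, 700 and 830 at N16h. No library at N16h reached any library in 2i. *Nanog* fell by 2.48 on the log2 scale (standard error, SE, 0.11; Benjamini-Hochberg adjusted p = 2.82e-25 in edgeR's quasi-likelihood test), leaving 17.9% of its level in 2i. *Tbx3* fell by 2.25 (SE 0.17, adjusted p = 1.59e-12, edgeR). Of the 11748 genes that reached an FPKM of 1 in either group, 37.1% were lower and 8.58% higher. The spike-in scaling put the median of these genes at −0.23 and called 1008 higher and 4364 lower. With TMM scaling, which centres all genes, 2624 were higher and 2840 lower, and the members fell by 2.27 and 2.04. In all 21 comparisons with TMM, between 43.8% and 69.1% of the called genes were higher. The summed FPKM of 9 mesendoderm and neural markers was 56.5 to 69.2 in 2i and 18.6 to 22.9 at N16h. Of the 6 that passed the FPKM minimum 4 were lower, led by *T* (−4.37). The other 2, *Sox1* (3.03) and *Pax6* (3.28), were higher. The part of these markers in the result was not tested. In bulk RNA, fewer cells expressing a gene and less RNA per cell cannot be told apart.

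By 72 h both had fallen further. *Nanog* was 1475, 1777 and 1809 in N72h, and *Tbx3* was 70.1, 62.1 and 112, from raw counts of 68, 40 and 185. *Nanog* fell by a further 1.40 (SE 0.11, adjusted p = 2.52e-16) and *Tbx3* by a further 3.12 (SE 0.20, adjusted p = 8.86e-15; edgeR), or 2.64-fold and 8.69-fold. In this comparison 60.9% of genes were called. The highest *Tbx3* value belongs to the clonal RGd2 library, which also had the highest summed FPKM of 7 primitive endoderm markers (15.9, against 5.35 and 5.68; none of the 7 at 0). Without it *Tbx3* fell by 3.48. The 9 mesendoderm and neural markers summed to 77.9 to 93.0 at N72h, with *Mesp1* at 0, and to 18.6 to 22.9 at N16h. Of these, 2 reached a mean FPKM of 1 at N72h and 5 at N16h, so the higher sum at N72h does not show a rise across the list. The 5 pluripotency markers summed to 384 to 404 at N72h, where 4 reached a mean FPKM of 1. At N16h they summed to 782 to 803, and all 5 reached it. The part of these markers in the result was not tested.

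Loss of *Rbpj* was compared with RGd2 before withdrawal first. *Nanog* in *Rbpj*-KO in 2i was 31310 (line c28), 28910 (c33) and 26830 (c36), a range that overlapped with RGd2. *Tbx3* was 5574, 4101 and 4590, each above the highest RGd2 library (4022). The log2 fold change was 0.22 for *Nanog* (SE 0.10, 95% interval 0.013 to 0.43, adjusted p = 0.2) and 0.42 for *Tbx3* (SE 0.16, interval 0.10 to 0.75, adjusted p = 0.098; edgeR), so neither gene passed, where 11.4% of all genes did. This depended on the settings. *Tbx3* passed without a low-count filter (adjusted p = 0.00571). With TMM both passed, at 0.26 (adjusted p = 0.00309) and 0.46 (adjusted p = 0.0352). *Nanog* also passed without RGd2 replicate 31 (0.35, adjusted p = 0.0167), and its value was 0.10 without RGd2 replicate 33.

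At N16h both genes stood well above RGd2. *Nanog* was 12000 (c28), 11570 (c33) and 11300 (c36) in *Rbpj*-KO, and *Tbx3* was 2145, 2145 and 2218. Every one of these exceeded every RGd2 library at N16h and fell short of every *Rbpj*-KO library in 2i. *Nanog* was higher by 1.38 (SE 0.11, adjusted p = 5.55e-15), or 2.61-fold, and *Tbx3* by 1.54 (SE 0.17, adjusted p = 1.8e-08; edgeR), or 2.92-fold. Of all genes, 18.8% were higher and 3.33% lower, with a median of 0.14 (2204 and 390 genes). With TMM 1699 were higher and 1315 lower, and the values were 1.24 and 1.40. Relative to the summed counts of *Pou5f1* and *Sox2*, a ratio free of the spike-ins, *Nanog* was higher by 1.12 and *Tbx3* by 1.28.

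Line c36 had a summed primitive endoderm marker FPKM of 8.20 in 2i and 10.3 at N16h, where the other *Rbpj*-KO libraries had 0.752 to 2.09 and RGd2 0.547 to 2.56 in these conditions. Of the 7 markers 2 reached an FPKM of 1 in *Rbpj*-KO at N16h and none was called or at 0. Without c36 at N16h the differences were as large, 1.40 for *Nanog* and 1.53 for *Tbx3*. The summed FPKM of the 9 mesendoderm and neural markers was 34.9 to 35.4 in *Rbpj*-KO and 18.6 to 22.9 in RGd2 at N16h. Of the 5 that passed the FPKM minimum 4 were called higher, led by *Nes* (3.62), where 18.8% of all genes were higher and 3.33% lower. With TMM 3 of these 5 were higher and 1 lower. None of the 9 was at 0 in either group. The part of these genes in the result was not tested.

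**Figure D3:**
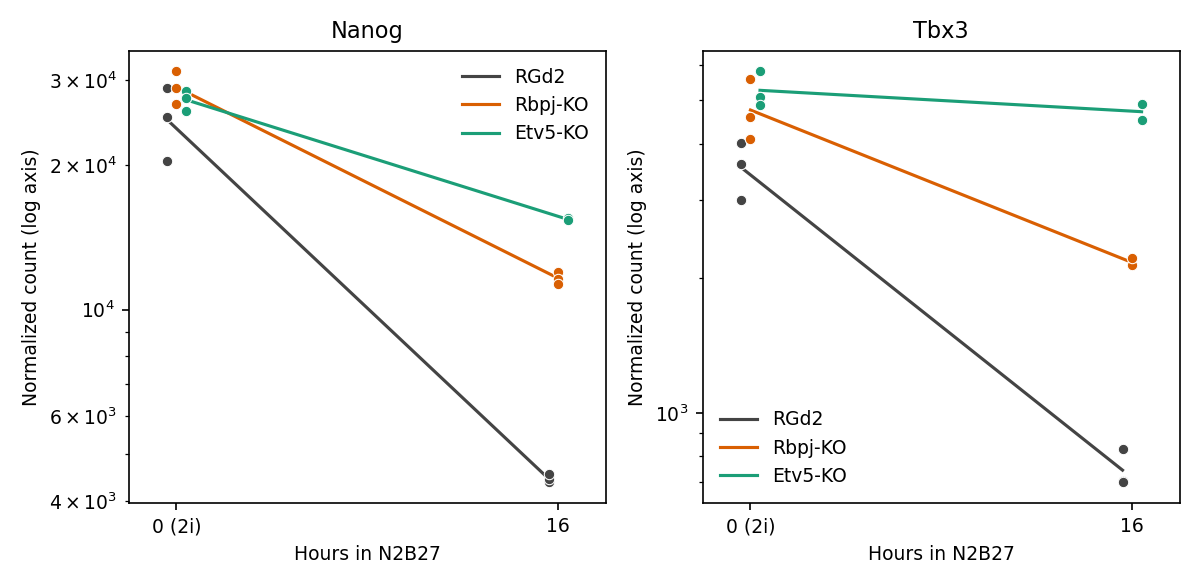
Spike-in normalized count (log axis) of *Nanog* (left) and *Tbx3* (right) in 2i, plotted at 0 h, and 16 h after withdrawal, with a point per library and lines joining the means of each genotype. The means lie furthest apart in RGd2 for both genes and closest for *Tbx3* in *Etv5*-KO (a change of −0.16 that did not pass).

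The exit response itself was then compared. Within *Rbpj*-KO, *Nanog* fell by 1.32 (SE 0.11, adjusted p = 6.16e-15) and *Tbx3* by 1.13 (SE 0.16, adjusted p = 1.98e-06; edgeR), where 28.2% of genes were called. These are decreases of 2.5-fold and 2.19-fold, against 5.59-fold and 4.76-fold in RGd2. The difference between the responses, tested as a contrast of contrasts, was 1.16 for *Nanog* (SE 0.15, adjusted p = 2.18e-07) and 1.12 for *Tbx3* (SE 0.23, adjusted p = 0.00339; edgeR). It was called for 4.02% of genes. Both differences passed in all 21 alternatives tried, with values from 0.98 to 1.29 for *Nanog* and from 0.94 to 1.25 for *Tbx3*. *Rbpj* itself rose in RGd2 over these 16 h by 1.49 (adjusted p = 7.88e-05, edgeR). Its remaining counts in *Rbpj*-KO rose too, by 1.29 (adjusted p = 0.000762), and the difference from RGd2 was −0.20 (adjusted p = 0.825; edgeR). In *Etv5*-KO *Rbpj* rose by 2.01 (adjusted p = 5.37e-06, edgeR).

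Loss of *Etv5* was compared in the same way, and shares its RGd2 libraries with the *Rbpj*-KO comparisons. In 2i *Nanog* was 28460 (c16), 27570 (c17) and 25930 (c1), within reach of RGd2. *Tbx3* was 5804, 5092 and 4891, all above RGd2. *Tbx3* was higher by 0.57 (SE 0.16, adjusted p = 0.00781), or 1.49-fold, and the value for *Nanog* was 0.14 (SE 0.10, interval −0.074 to 0.35, adjusted p = 0.349; edgeR), where 34% of genes were called with a median of −0.20. With TMM *Nanog* passed too (0.34, adjusted p = 6.87e-05). Without RGd2 replicate 32 the adjusted p of *Tbx3* was 0.051 at a value of 0.46.

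At N16h *Nanog* was 15470 (c17) and 15350 (c1), and *Tbx3* was 4520 and 4909. *Nanog* was therefore below all 3 *Etv5*-KO libraries in 2i, whereas *Tbx3* overlapped with them. Against RGd2, *Nanog* was higher by 1.79 (SE 0.12, adjusted p = 1.09e-17), or 3.46-fold. *Tbx3* was higher by 2.66 (SE 0.18, adjusted p = 7.41e-13; edgeR), or 6.34-fold, and 29.1% of genes were higher and 3.2% lower, with a median of 0.23 (3413 and 376 genes). TMM called 1898 higher and 1487 lower, and gave 1.56 and 2.43. The ratio to *Pou5f1* and *Sox2* was higher by 1.29 for *Nanog* and by 2.16 for *Tbx3*.

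Within *Etv5*-KO, *Nanog* fell by 0.83 between 2i and N16h (SE 0.12, adjusted p = 1.24e-07). The change of *Tbx3* was −0.16 (SE 0.18, interval −0.52 to 0.21, adjusted p = 0.538; edgeR), which does not exclude a decrease of up to the lower bound of that interval. In this comparison 40.8% of genes were called, and TMM moved *Tbx3* to −0.39 (adjusted p = 0.0631). The difference from the RGd2 response was 1.66 for *Nanog* (SE 0.16, adjusted p = 6.77e-12) and 2.09 for *Tbx3* (SE 0.24, adjusted p = 9.3e-08; edgeR). It was called for 37% of genes under the spike-in scaling, whose median was 0.44. With TMM the values were 1.22 and 1.66.

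*Rbpj* was present in these *Etv5*-KO cells. Its normalized count at N16h was 18940 and 19630, above the RGd2 libraries (12250 to 12690), with no overlap. The difference of 0.63 did not pass (SE 0.28, adjusted p = 0.109, edgeR). Its SE rests on a spread estimated over all conditions, among them ER-dKO, where *Rbpj* ranged from 1131 to 3468. The missing call therefore does not show equal levels. *Etv5* in *Rbpj*-KO at N16h was 11910 to 12400, against 11910 to 13080 in RGd2 (log2 fold change −0.038, SE 0.15, adjusted p = 0.91, edgeR). In 2i *Etv5* was lower in *Rbpj*-KO than in RGd2, by 0.48 (SE 0.15, adjusted p = 0.0415, edgeR). *Tcf7l1* was higher in *Etv5*-KO at N16h by 1.07 (SE 0.27, adjusted p = 0.00571, edgeR). It did not pass in *Etv5*-KO in 2i (−0.30), nor in *Rbpj*-KO in 2i (−0.42) or at N16h (0.42). The summed FPKM of the 9 mesendoderm and neural markers in *Etv5*-KO at N16h was 27.4 to 28.1, with *Mesp1* at 0. Of the 5 that passed the FPKM minimum 2 were higher and 1 lower, where 29.1% and 3.2% of all genes were. With TMM 2 of these 5 were higher and 2 lower. The primitive endoderm markers summed to 0.845 to 1.28 in *Etv5*-KO at N16h, with none of the 7 reaching an FPKM of 1. The part of these genes in the result was not tested.

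The single mutants were compared directly. In 2i the difference of *Etv5*-KO from *Rbpj*-KO was −0.087 for *Nanog* (interval −0.30 to 0.12, adjusted p = 0.608) and 0.15 for *Tbx3* (interval −0.18 to 0.47, adjusted p = 0.564; edgeR), where 26.3% of genes were called. TMM turned the sign for *Nanog*, to 0.078 (adjusted p = 0.418). At N16h *Nanog* was higher in *Etv5*-KO by 0.41 (SE 0.12, adjusted p = 0.0111) and *Tbx3* by 1.12 (SE 0.18, adjusted p = 2.29e-05; edgeR), or 1.33-fold and 2.17-fold. There 18% of genes were called, and the ranges of the genotypes did not overlap for either gene. With only 1 *Etv5*-KO library left, *Nanog* no longer passed (adjusted p = 0.0836 and 0.0897), while *Tbx3* did in all 13 alternatives.

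**Figure D4:**
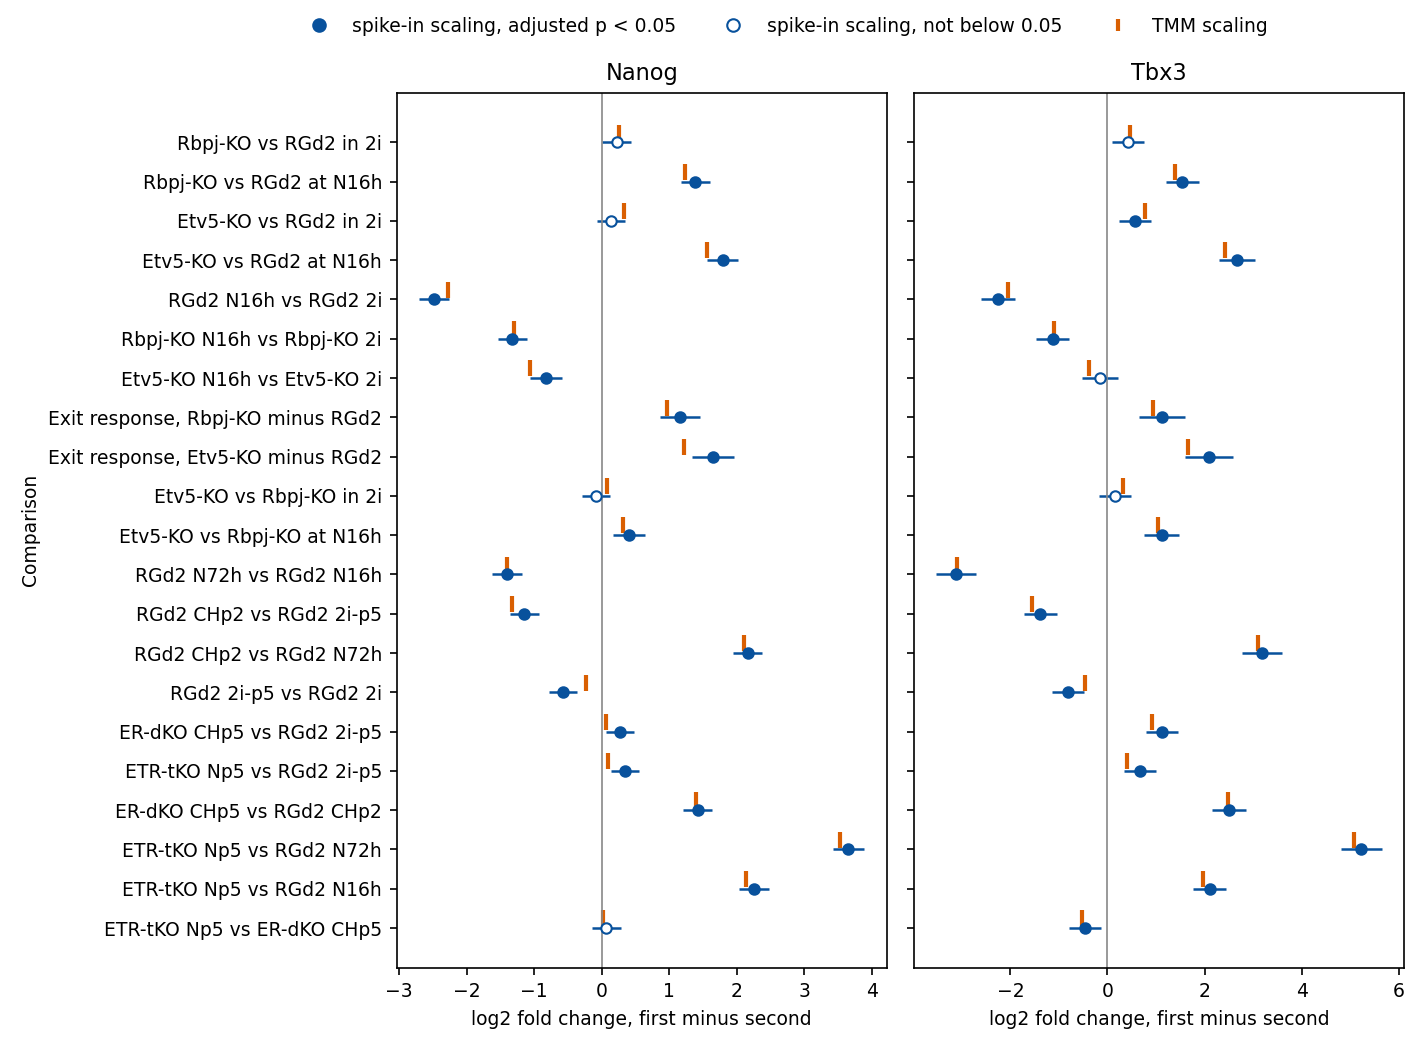
Log2 fold change of *Nanog* (left) and *Tbx3* (right) in each of 21 comparisons, first group minus second, with 95% intervals. Filled points passed an adjusted p of 0.05, and orange ticks give the value with TMM scaling, which moved *Nanog* in ER-dKO and ETR-tKO against 2i-p5 from 0.27 and 0.35 to 0.068 and 0.093.

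Both genes were lower in RGd2 in CHIRON alone than in 2i-p5. *Nanog* was 8454, 7373 and 6842 in CHp2 and 16150, 18000 and 16060 in 2i-p5. *Tbx3* was 920, 785 and 626 in CHp2 and 1820, 2317 and 1914 in 2i-p5. *Nanog* fell by 1.15 (SE 0.11, adjusted p = 3.59e-13) and *Tbx3* fell by 1.38 (SE 0.17, adjusted p = 6.27e-08; edgeR), where 42.4% of genes were called. Against N72h, CHp2 was higher by 2.16 for *Nanog* (SE 0.11, adjusted p = 5.67e-23) and by 3.18 for *Tbx3* (SE 0.20, adjusted p = 2.76e-14; edgeR), with 37.1% of genes called. Passage and time in culture differ between these groups. The summed FPKM of mesendoderm and neural markers was 92.4 to 94.5 in CHp2 and 32.5 to 35.9 in 2i-p5. *T* alone had a mean of 69.1 and 5.81. It made up most of the CHp2 sum, which therefore does not show a rise of the other markers. The primitive endoderm markers summed to 1.94 to 3.02 in CHp2 and 0.537 to 0.861 in 2i-p5. None of these genes was at 0. The 5 pluripotency markers summed to 457 to 489 in CHp2 and 766 to 810.0 in 2i-p5. What these genes contribute to the result was not tested.

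The RGd2 cultures in 2i were not alike. Their culture history can differ, as the paper describes a short stay in 2i after CHIRON with LIF before assays. The part of this in the values was not tested. Against 2i, the log2 fold change of 2i-p5 was −0.57 for *Nanog* (SE 0.10, adjusted p = 3.27e-05) and −0.81 for *Tbx3* (SE 0.16, adjusted p = 0.000288; edgeR), with no overlap between libraries. This scaling called 52.3% of genes and put the median of all at −0.35. With TMM the values were −0.23 and −0.47. The choice of naive control therefore enters the comparisons of ER-dKO and ETR-tKO.

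ER-dKO cells in CHIRON had *Nanog* at 20080 ((Ec1)Rc43), 20120 (ERc7) and 20550 (ERc9), and *Tbx3* at 4565, 4075 and 4559. Every library was above RGd2 2i-p5 and above RGd2 CHp2. Against 2i-p5, *Tbx3* was higher by 1.12 (SE 0.16, adjusted p = 2.01e-06) and *Nanog* by 0.27 (SE 0.10, adjusted p = 0.0362; edgeR), where 34.2% of genes were higher and 8.29% lower, with a median of 0.21 (3949 and 958 genes, or 2528 and 2343 with TMM). *Nanog* lost its call with TMM (0.068), and without any of the libraries (Ec1)Rc43 (0.28), ERc7 (0.28) or ERc9 (0.26), as well as without 2i-p5 replicate 1 or 3 (0.25 each). Against RGd2 in 2i in place of 2i-p5 the sign turned for *Nanog*, to −0.30 (adjusted p = 0.0235), and *Tbx3* was at 0.31 (adjusted p = 0.138; edgeR). Without ERc9, the line with high *Rbpj* counts, *Tbx3* was at 1.10 (adjusted p = 2.17e-05). Relative to *Pou5f1* and *Sox2*, the mean in ER-dKO minus that in 2i-p5 was −0.040 (log2, not tested) for *Nanog* and 0.82 for *Tbx3*. With the spike-in scaling *Pou5f1* and *Sox2* were themselves called higher in ER-dKO than in 2i-p5, by 0.28 and 0.41.

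RGd2 CHp2 is the control in the same medium. Against it, *Nanog* in ER-dKO was higher by 1.42 (SE 0.11, adjusted p = 1.67e-16), or 2.68-fold, and *Tbx3* by 2.5 (SE 0.17, adjusted p = 1.23e-13; edgeR), or 5.67-fold, where 49.7% of genes were called. Passage number (5 and 2) differed along with the genotype. *Nanog* and *Tbx3* passed in all 14 alternatives. The ratio of *Nanog* to *Tbx3* per length was at most 14.6 in ER-dKO, below all RGd2 libraries. The summed FPKM of mesendoderm and neural markers was 38.2 to 39.1 in ER-dKO and 92.4 to 94.5 in CHp2, where most of it was *T*. That of primitive endoderm markers was 0.336 to 0.458 and 1.94 to 3.02, with none of either list at 0. The pluripotency markers summed to 847 to 864 in ER-dKO and 457 to 489 in CHp2. Their part in the result was not tested.

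ETR-tKO cells in N2B27 without inhibitor had *Nanog* at 20590 ((ETc1)Rc53), 21840 ((Tc1)ERc2) and 21470 ((Tc1)ERc10), and *Tbx3* at 2275, 3741 and 3583. The line (ETc1)Rc53 had the lowest *Tbx3*, inside the range of 2i-p5, while its *Nanog* stood with the others. The other lines share Tc1 in their labels. Against 2i-p5, *Nanog* was higher by 0.35 (SE 0.10, adjusted p = 0.00648) and *Tbx3* by 0.66 (SE 0.16, adjusted p = 0.00151; edgeR), where 37.7% of genes were higher and 9.46% lower, with a median of 0.23 (4450 and 1118 genes, or 2725 and 3139 with TMM). With TMM *Nanog* was at 0.093 and did not pass. With the spike-in scaling *Pou5f1* and *Sox2* were themselves called higher in ETR-tKO than in 2i-p5, by 0.36 and 0.58. Relative to these 2 genes, the differences of the pair from 2i-p5 were −0.064 (log2, not tested) for *Nanog* and 0.23 for *Tbx3*. Against RGd2 in 2i both signs turned, to −0.22 for *Nanog* (adjusted p = 0.0861) and −0.15 for *Tbx3* (adjusted p = 0.509; edgeR), neither of which passed. The summed FPKM of mesendoderm and neural markers was 77.3 to 80.5 in ETR-tKO and 32.5 to 35.9 in 2i-p5, with *Mesp1* at 0. *Tubb3*, a neuronal tubulin, made up most of both sums, with a mean of 57.7 and 20.2. Of the 5 markers that passed the FPKM minimum 4 were higher and 1 lower, also with TMM. The lower one was *T* (−4.81). The part of these markers in the result was not tested.

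Both genes were far higher in ETR-tKO than in RGd2 in N2B27. Against N72h, *Nanog* was 12.6-fold higher (log2 fold change 3.66, SE 0.12, adjusted p = 3.45e-32) and *Tbx3* 37.4-fold (5.22, SE 0.21, adjusted p = 3.53e-20; edgeR), where 58.9% of genes were called. Without the clonal N72h library, *Tbx3* was at 5.58. Against N16h the values were 2.26 for *Nanog* (SE 0.11, adjusted p = 9.38e-24) and 2.10 for *Tbx3* (SE 0.17, adjusted p = 4.78e-12; edgeR), with 45.4% of genes called. Length of culture differed in both comparisons. The 7 primitive endoderm markers summed to an FPKM of 1.67 to 2.16 in ETR-tKO and 5.35 to 15.9 in N72h, and the 5 pluripotency markers to 854 to 933 and 384 to 404. The mesendoderm and neural markers summed to 77.3 to 80.5 in ETR-tKO, 77.9 to 93.0 in N72h and 18.6 to 22.9 in N16h. Of these 9 markers 4 reached a mean FPKM of 1 in ETR-tKO, 2 in N72h and 5 in N16h. The part of these genes in the result was not tested.

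Between the compound mutants, *Nanog* differed by 0.073 (ETR-tKO minus ER-dKO, interval −0.14 to 0.28, adjusted p = 0.696) and *Tbx3* by −0.46 (SE 0.16, adjusted p = 0.0362; edgeR), where 24.4% of genes were called. The ranges did not overlap for either gene. *Tbx3* was no longer past the threshold without ER-dKO replicate 10 (−0.43) or 12 (−0.43) or ETR-tKO replicate 13 (−0.26). The media of these groups differ.

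The rest of the naive network was set beside the pair at N16h. None of the called list members turned sign with TMM. In *Rbpj*-KO 7 of 12 genes were higher and 1 lower, where 18.8% of all genes were higher and 3.33% lower, with a median of 0.54 against 0.14 for all genes. *Prdm14*, a regulator of naive identity and the germline, was higher by 1.16 (adjusted p = 2.24e-09), *Klf4* by 0.86 (adjusted p = 8.12e-07), *Nr5a2* by 0.68 (adjusted p = 5.32e-06) and *Esrrb* by 0.53 (adjusted p = 0.000264; edgeR). *Dppa3* was the gene called lower, from at most 6 counts in any *Rbpj*-KO library. *Tcl1* (0.41) lost its call with TMM. *Fgf4*, *Zfp42*, *Nr0b1* and *Klf2* did not pass. All 12 values lay below those of *Nanog* and *Tbx3*. In *Etv5*-KO, against the same RGd2 libraries, 11 of 12 were higher and 0 lower (29.1% and 3.2% of all genes), with a median of 1.03 against 0.23. *Prdm14* at 1.80 stood beside *Nanog* at 1.79, *Tcl1* was at 1.64 and *Tbx3* was above all of them. *Fgf4* lost its call with TMM (0.40 to 0.16). In RGd2 over the first 16 h, 9 of the 12 fell and 1 rose (37.1% and 8.58% of all genes), with a median of −1.44 against −0.23. *Nr0b1*, which encodes the nuclear receptor DAX1, was the gene that rose, by 0.87. With TMM *Fgf4* rose too (0.31) and *Klf5* lost its call.

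**Figure D5:**
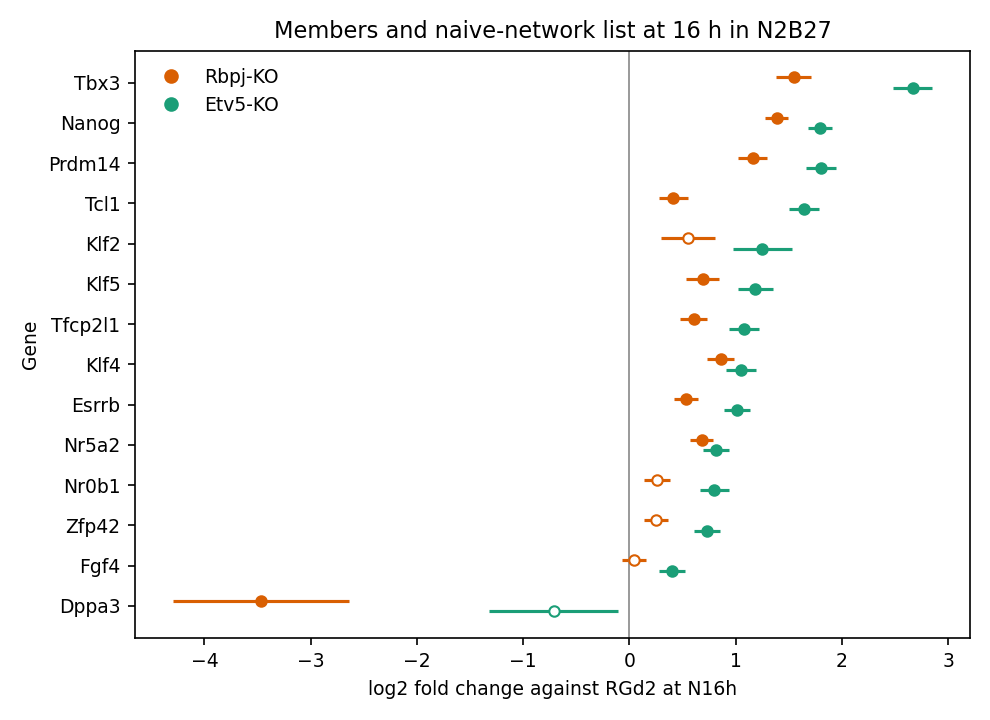
Log2 fold change against RGd2 at N16h of *Nanog*, *Tbx3* and 12 other naive-network genes in *Rbpj*-KO and *Etv5*-KO, which share the RGd2 libraries, with standard errors. Filled points passed an adjusted p of 0.05, and *Tbx3* has the highest value in both mutants (1.54 and 2.66).

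In the compound mutants against 2i-p5, network genes were called in both directions. In ER-dKO 5 of 12 were higher and 3 lower, where 34.2% and 8.29% of all genes were, and in ETR-tKO 6 and 2, where 37.7% and 9.46% were, with medians of 0.094 and 0.27 against 0.21 and 0.23 for all genes. *Klf4* was higher by 1.96 and 1.66, whereas *Prdm14* was lower (−1.17 and −0.60), as were *Dppa3* in both and *Nr0b1* in ER-dKO (−0.53). *Tfcp2l1* did not pass in either (−0.026 and −0.067). With TMM 5 were higher and 3 lower in ER-dKO, and 4 and 4 in ETR-tKO, where *Tfcp2l1* and *Nr5a2* were called lower and *Nr0b1* and *Zfp42* lost their calls.

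A list of 12 NOTCH targets repressed by RBPJ was drawn up with results of these data known, so that its direction is not independent evidence. Several members lay under an FPKM of 1 in RGd2 at N16h and reached it through a mutant in which they were high, so the list is given by values and not by a count. *Hes1*, *Id1*, *Id3* and *Trh* were above this level in RGd2 itself (1.63, 3.14, 7.21 and 32.2). *Hes1*, a transcriptional repressor, was higher by 2.91 in *Rbpj*-KO and by 0.81 in *Etv5*-KO, where *Rbpj* was not deleted. *Id3*, an inhibitor of bHLH factors, was higher by 1.76 and 1.25, *Id1* by 2.65 and 1.09, and *Trh* by 4.36 and 1.25. Of those under the level, *Nrarp* had a mean FPKM of 0.245 in RGd2, 5.49 in *Rbpj*-KO and 0.312 in *Etv5*-KO, and *Prickle1* 0.422, 17.1 and 0.508. Other members were high in both mutants. The log2 fold change of *Nrp2* was 4.30 in *Rbpj*-KO and 2.84 in *Etv5*-KO, and that of *Id4* 2.85 and 2.65. *Hey1* had values of 4.42 and 2.85, the latter with a mean FPKM under 1 in both groups. *Id2* had a mean of 0.761 in RGd2, 0.430 in *Rbpj*-KO (log2 fold change −0.72, adjusted p = 0.101, edgeR, which did not pass) and 2.54 in *Etv5*-KO. In RGd2 over the first 16 h *Hes1* fell by 2.58, *Trh* fell by 1.66 and *Id1* rose by 1.48, while *Id3* had a value of 0.18 and did not pass (with TMM it was higher, at 0.42). Against 2i-p5, *Hes1* was higher by 0.71 in ER-dKO and by 0.39 in ETR-tKO, the latter lost with TMM. *Id3* was higher by 3.71 and 4.05 and *Nrp2* by 3.04 and 2.97, whereas *Id4* was higher in ER-dKO (1.31) and had a value of −0.38 in ETR-tKO that did not pass (with TMM it was lower, at −0.64).

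Of 7 general pluripotency factors at N16h, 1 was higher in *Rbpj*-KO (*Sox2*, 0.36) and 1 lower (*Foxd3*, −0.92), where 18.8% and 3.33% of all genes were. In *Etv5*-KO 3 were higher and 0 lower, where 29.1% and 3.2% of all genes were, with *Pou5f1* at 0.51. *Sox2* lost its call in both with TMM (0.22 and 0.21), and *Lin28a* was then lower in *Rbpj*-KO (−0.36). Formative genes were more often lower than higher. In *Rbpj*-KO 5 of 9 were lower and 1 higher, against 3.33% and 18.8% of all genes, with *Lef1* at −3.99 and *Pou3f1*, which encodes OCT6, at −1.91. In *Etv5*-KO 6 were lower and 1 higher, against 3.2% and 29.1%, with *Lef1* at −2.32. *Etv4* was the formative gene called higher in both (1.16 and 0.78). With TMM *Dnmt3a* and *Zic2* were lower as well in *Rbpj*-KO.

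Relatives and neighbours of the pair were measured in the same comparisons. Of 16 other T-box genes *Eomes* and *Mga* had an FPKM of at least 1 in RGd2 at N16h. *Eomes*, a regulator of mesendoderm, was higher in *Rbpj*-KO (1.05) and in *Etv5*-KO (1.12), and *Mga* had values of 0.15 and 0.21 that did not pass. *Tbx4* and *Tbx15* reached an FPKM of 1 only through *Rbpj*-KO, where they were high (their means in RGd2 were 0.600 and 0.327). Of 8 homeobox relatives of *Nanog*, *Nkx1-2* had a mean FPKM of 1.47 in RGd2 and was higher in *Rbpj*-KO (1.31) and lower in *Etv5*-KO (−2.05). *Vax2* had a mean of 0.850 in RGd2 and came over the minimum only through the mutants, at 14.5 to 15.8 in *Rbpj*-KO and 14.3 to 15.8 in *Etv5*-KO. Around *Nanog* on chromosome 6, *Slc2a3*, which encodes the glucose transporter GLUT3, was higher by 1.12 in *Rbpj*-KO and by 1.07 in *Etv5*-KO. *Dppa3* was lower in *Rbpj*-KO (−3.46, adjusted p = 0.00347, edgeR) and had a value of −0.71 in *Etv5*-KO that did not pass. *Foxj2* had values of 0.39 (adjusted p = 0.143) and 0.80 (adjusted p = 0.00124; edgeR), with a mean FPKM of 0.934 in RGd2 and above 1 in both mutants. *Gdf3* had values of 0.24 (adjusted p = 0.115) and 0.45 (adjusted p = 0.00368; edgeR), the latter 0.21 and not called with TMM, and *Apobec1* passed in neither (−0.033 and 0.49). Around *Tbx3* on chromosome 5, *Rbm19* had values of −0.049 and 0.21, neither of which passed (with TMM it was lower in *Rbpj*-KO, at −0.20), and *Med13l* was at 0.076 in *Rbpj*-KO and higher by 0.51 in *Etv5*-KO (adjusted p = 0.00143, edgeR).

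The genes whose condition means most resembled each member were ranked by Pearson's r over 11 conditions among 13347 genes, as a description. For *Nanog* these were *Zfp607b* (0.99), *Rusc2* (0.98), *Tfcp2l1* (0.97), *Klf2* (0.97) and *Atp5b* (0.97, over a range of 0.48 on the log2 scale). For *Tbx3* they were *Mob3c* (0.98), *Zfp607b* (0.98), *Pramef12* (0.98), *Esrrb* (0.97) and *Apmap* (0.97). *Tbx3* held place 13 in the order for *Nanog* and *Nanog* place 25 in that for *Tbx3*, with an r of 0.96. The conditions share libraries' scaling, and RGd2 at N72h lies far below the others for both genes.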

How the data were processed

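Total RNA from 32 libraries was analyzed, grouped by the sample labels. For N16h the study's methods assign 2 replicates to RGd2, whereas 3 are labelled so, and the labels were followed. Per the labels and methods, ribosomal RNA was depleted, ERCC spike-ins were added and libraries were strand-specific, although the labels' molecule field reads polyA RNA. The authors trimmed reads with Trim Galore (discarding those under 20 nt), used TopHat2 for alignment to GRCm38/mm10 guided by Gencode models, and deposited raw counts of unique primary matches from featureCounts, without normalization. Nothing but counts was used of the deposited values, and FPKM, CPM and log2 values were computed here.

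Libraries were scaled by the median of ratios of 52 of the 92 spike-ins (0.991% to 1.52% of counts). The 18892 genes passing filterByExpr were tested in 1 model with a coefficient per condition, by edgeR 4.0.16 (robust quasi-likelihood, two-sided, Benjamini-Hochberg over all) in R 4.3.3. Genes were called at an adjusted p below 0.05 if their mean FPKM reached 1 in either group, and percentages of genes called refer to genes that reached it. Gene IDs without a symbol numbered 193 (0.0259% of counts). The p-values measure the spread between the libraries, which are separate lines in the mutants and cultures of 1 parental and 1 clonal line in RGd2. The ETR-tKO lines (Tc1)ERc2 and (Tc1)ERc10 share Tc1 in their labels, so they may descend from a common clone and not be independent. Recurring clonal lines pair 2i with N16h: deviations of the same line correlated at 0.042, 0.032 and 0.11 in *Rbpj*-KO and at 0.0068 and 0.016 in *Etv5*-KO. The genes named are the pair, the targeted genes, members of the lists and the 5 genes most alike. The members and lists were chosen with earlier results of these data known. The test was checked on simulated data. Alternatives were TMM, median-of-ratios and total spike-in scaling, DESeq2, other filters, fits of only the libraries compared, the clonal line as block, leaving out each library and, chosen after seeing the data, a fit without robust estimation, the lists under TMM and median-of-ratios scaling, and RGd2 in 2i as control. RefSeq promoter windows (GRCm38.p6) were matched by symbol for *Nanog*, 1 of the 2 members. Figures used matplotlib. ChIP-seq was not analysed here.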

Additional observations from a re-analysis of the deposited data

Results flagged for a closer look

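The exit response differed between genotypes by the test of the difference itself for both genes: *Nanog* by 1.16 and *Tbx3* by 1.12 on the log2 scale in *Rbpj*-KO against RGd2, and by 1.66 and 2.09 in *Etv5*-KO against RGd2.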

How the results depend on the processing

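Of 618 alternative values for 42 differences of the pair, 587 kept their direction and their side of the threshold, 18 lost their call, 8 gained a call and 5 turned sign, and 31 differences kept both in every alternative. The clonal line as replicate block changed no call (*Nanog* and *Tbx3* exit difference 1.15 and 1.13 in *Rbpj*-KO, 1.68 and 2.17 in *Etv5*-KO). With TMM, calls appeared in 2i for *Nanog* and *Tbx3* in *Rbpj*-KO (0.26 and 0.46) and *Nanog* in *Etv5*-KO (0.34), *Nanog* lost its call in ER-dKO and ETR-tKO against 2i-p5 (0.0677 and 0.0932) and turned sign between *Etv5*-KO and *Rbpj*-KO in 2i (0.0779). Median-of-ratios scaling on genes did the same (0.25, 0.45, 0.32, 0.0644, 0.11 and 0.073). Without a low-count filter *Tbx3* in *Rbpj*-KO in 2i gained a call (0.42) and *Nanog* in ER-dKO lost its call (0.27). With only the libraries compared, *Tbx3* between ETR-tKO and ER-dKO lost its call (−0.46). Against RGd2 in 2i in place of 2i-p5, chosen after seeing the data, *Nanog* turned sign in ER-dKO (−0.30) and ETR-tKO (−0.22), *Tbx3* turned in ETR-tKO (−0.15) and lost its call in ER-dKO (0.31). The cause of these changes was not tested.

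Leaving out each library in turn moved the results that changed side over these ranges: *Nanog* in *Rbpj*-KO in 2i 0.10 to 0.35, *Tbx3* in *Etv5*-KO in 2i 0.46 to 0.68, *Nanog* in ER-dKO against 2i-p5 0.25 to 0.33, *Tbx3* in ETR-tKO against ER-dKO −0.59 to −0.26, and *Nanog* in *Etv5*-KO against *Rbpj*-KO at N16h 0.39 to 0.43. With a single *Etv5*-KO library at N16h, that library is assumed to vary like the other groups.

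Levels against RGd2 in 2i moved by more than the replicate SD when CPM replaced the spike-ins. For *Nanog* they became −0.26 in 2i-p5, −1.54 in CHp2, −2.26 in N16h, −3.63 in N72h, −0.24 in ER-dKO, −0.14 in ETR-tKO, 0.30 in *Etv5*-KO in 2i and −0.99 in *Rbpj*-KO at N16h. For *Tbx3* they became −0.51 in 2i-p5, −2.04 in N16h, 0.72 in *Etv5*-KO in 2i and −0.60 in *Rbpj*-KO at N16h. With TMM 2132 genes in place of 1312 were called in *Rbpj*-KO in 2i, 1614 in place of 4530 for the *Etv5*-KO exit difference, 2972 in place of 6039 between the 2i cultures and 4353 in place of 2841 between the compound mutants. Ranked by Spearman's rho, 0 of the 5 genes most alike were shared for either member. Raw counts of *Tbx3* at N72h, 40 to 185, set the depth limit.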
